A study of Mus musculus with 3 samples.

Results

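The genes described here are 10 regulators of the G1 phase of the cell cycle, chosen by name and matched by symbol among the 51912 genes of the count tables. They are the D-type cyclins Ccnd1, Ccnd2 and Ccnd3, the E-type cyclins Ccne1 and Ccne2, the kinases Cdk4 and Cdk6, the kinase inhibitors Cdkn1a (p21) and Cdkn1b (p27), and the retinoblastoma gene Rb1. All 10 were found and all 10 had transcripts in the cells that were kept. Their levels were measured by single-cell RNA sequencing (scRNA-seq) of mouse intestinal epithelium in 2 Arid3a cKO libraries (VillinCreERT2 with both Arid3a alleles floxed) and the 1 WT library analysed here (VillinCreERT2 alone). All animals, controls included, carried the tamoxifen-inducible Cre, whose Villin promoter is active in intestinal epithelium, were given tamoxifen at an age of 8 to 10 weeks and were harvested 1 month after the first injection. Crypts were dissociated and sorted for live cells that were positive for Epcam and negative for CD45 and CD31. Cells were kept when they had at least 1000 detected genes and at most 15% of UMIs (unique molecular identifiers, 1 per captured transcript) from mitochondrial genes, which left 5594 of 25554 barcodes. Transcripts were counted near the 3′ end, so levels are compared for 1 gene across cells and not between genes.

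G1 cyclins are the partners that switch on their kinases. D cyclins bind Cdk4 or Cdk6 in response to growth signals, and the active kinase phosphorylates Rb, which otherwise holds E2F transcription factors in check. Released E2F factors drive genes for DNA replication and the E cyclins, which activate Cdk2 at the entry into S phase. Cdkn1a and Cdkn1b bind cyclin-kinase complexes, and Cdkn1a is a well known target of p53. In the intestine, division is restricted to stem cells (ISC) and transit-amplifying (TA) cells of the crypt, while the enterocytes of the villus have left the cell cycle.

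The libraries are called Arid3a cKO 1, Arid3a cKO 2 and WT, held 2134, 1550 and 1910 kept cells, and values below follow this order unless stated. Median depth per kept cell was 31391.5, 35764 and 29895 UMIs. The kept share of barcodes was 31.2%, 22.5% and 16.2%, and the median mitochondrial share of kept cells 4.64%, 4.07% and 5.52%. WT was thus lowest in depth and kept share and highest in mitochondrial share. With 1 WT library, genotype and these differences cannot be told apart. Arid3a itself had 0.592, 0.894 and 2.57 UMIs per 1000000 UMIs (CPM), with 95% counting intervals of 0.427 to 0.80, 0.668 to 1.17 and 2.19 to 2.997, so both cKO libraries lay below WT. Reads were not split between the floxed exons and the rest of Arid3a. Libraries shared 11 to 18 barcodes by pair. Clusters made without the 10 genes were named by their markers, and of 11 clusters 1 was ISC-like (led by Ung and Olfm4, with 870 cells), 1 TA-like (led by Nusap1 and Hmmr, 900 cells) and 4 enterocyte-like. A cluster of 745 cells met the naming rule for no class and stays unnamed. It held no marker of any class among its 10 leading genes, and Ccl20, Edn2 and Krt19 were among the genes that led it. The only Paneth-like cluster had 80 cells, and only 17 of these were in Arid3a cKO 2. The submitters call the libraries biological replicates, nothing else ties them to animals, and all intervals cover counting error only.

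Along the path from crypt to villus, 8 of the 10 genes had their lower level in enterocytes. These 8 were every cyclin, both kinases and Cdkn1b, and for each of them all 3 libraries of ISC- and TA-like cells lay above all 3 libraries of enterocyte-like cells. The same held for 56.4% of all genes at or above a mean of 5 CPM, so the share of members is read against that background. Cdkn1a and Rb1 went the other way, with all crypt values below all enterocyte values, as did 29.9% of all genes. Classes were made from the same cells, so these differences are given as descriptions with no test. In sums over all cells of a class, fewer expressing cells and fewer transcripts per cell cannot be told apart.

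**Figure D1:**
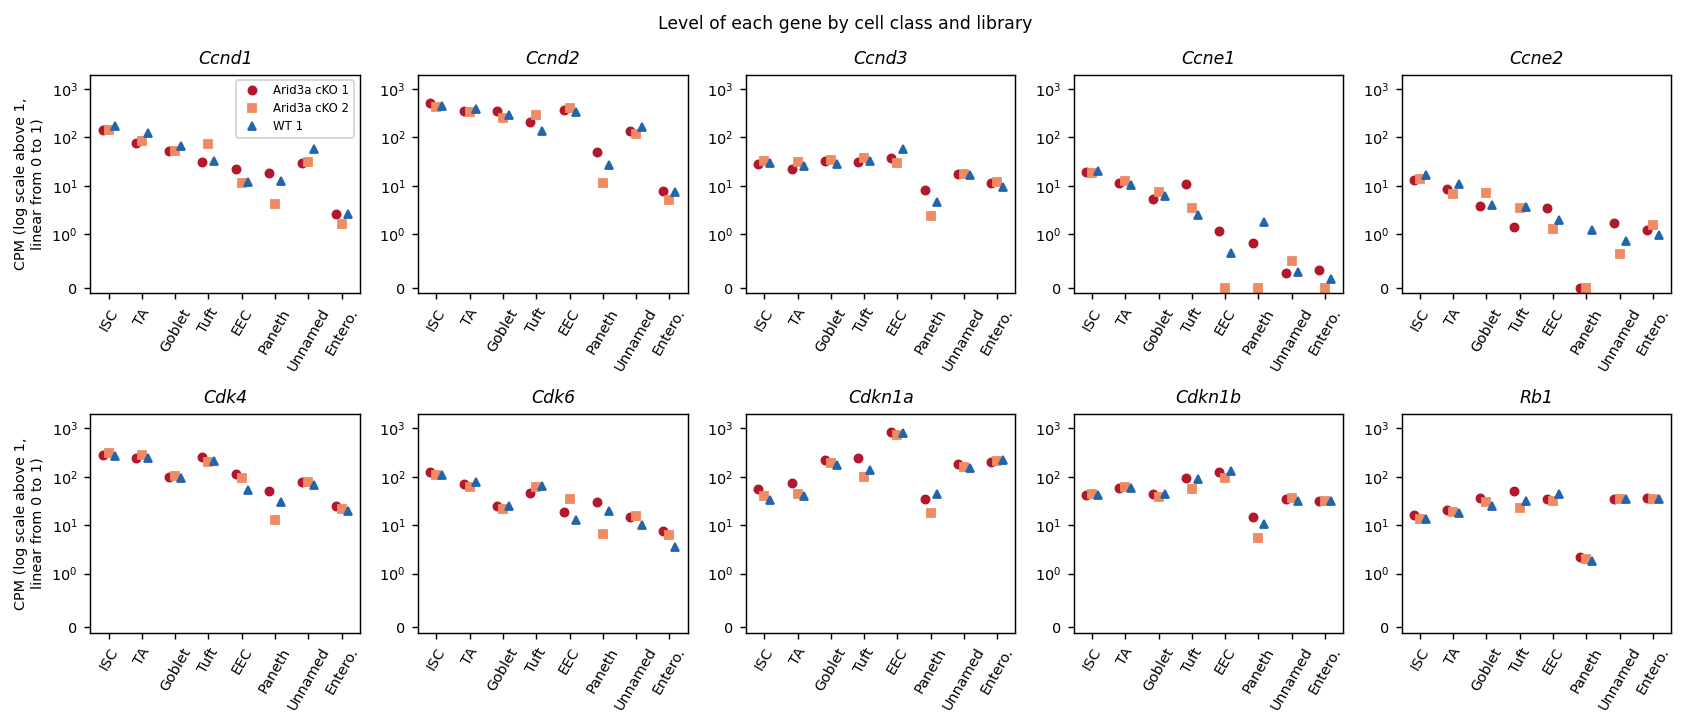
Level of each of the 10 genes (vertical axis, CPM, logarithmic above 1 and linear from 0 to 1) in 8 cell classes (horizontal axis) with 1 point per library. The cyclins and kinases fall from ISC-like to enterocyte-like cells, while Cdkn1a is highest in enteroendocrine-like cells (EEC) at 739 to 844 CPM.

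Among the D cyclins, Ccnd1 (chr7:144929931-144939925 of GRCm38, minus strand) and Ccnd2 (chr6:127125162-127152193, minus strand) had the lowest enterocyte level relative to the crypt. Ccnd1, a known target of Wnt signalling, stood at 105, 107 and 144 CPM in ISC- and TA-like cells together and at 2.68, 1.63 and 2.58 CPM in enterocyte-like cells. Ccnd2 stood at 431, 375 and 406 CPM in the crypt classes and at 8.03, 5.09 and 7.51 CPM in enterocytes. Both lost nearly all of their signal, the enterocyte level being 1.96% ± 0.536 (SD, n = 3) of the crypt level for Ccnd1 and 1.69% ± 0.289 for Ccnd2. Ccnd3 (chr17:47505051-47599691, plus strand), which activates the same kinases, kept 39.6% ± 5.92 of its crypt level, with 11.6, 11.8 and 9.65 CPM in enterocytes against 25.04, 31.1 and 27.8 CPM in the crypt.

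The order of the D cyclins over classes also differed. Ccnd1 was highest in ISC-like cells (151 ± 17.0 CPM, mean and SD, n = 3), followed by TA-like cells (95.6 ± 25.7 CPM) and goblet-like cells (56.9 ± 8.52 CPM), and the ranges of these 3 neighbours did not overlap. Ccnd2 was again highest in ISC-like cells (463 ± 52.3 CPM), but enteroendocrine-like cells came next at 369, 411 and 342 CPM and overlapped TA-like cells (361, 344 and 379.6 CPM). In the same enteroendocrine-like cells Ccnd1 was low, at 22.7, 11.3 and 11.9 CPM. Ccnd3 had its highest mean there (42.0 ± 14.9 CPM), though its ranges in enteroendocrine-, tuft-, goblet-, ISC- and TA-like cells overlapped from each to the next.

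The E cyclins Ccne1 (chr7:38097984-38107534, minus strand) and Ccne2 (chr4:11191351-11204779, plus strand) were scarce and had most of their signal in the crypt. Ccne1 had 14.99, 15.02 and 14.6 CPM in ISC- and TA-like cells and 9, 0 and 4 UMIs in all enterocyte-like cells, where the count of 0 in Arid3a cKO 2 has an exact 95% upper bound of 0.172 CPM. Ccne2 had 10.7, 9.69 and 13.5 CPM in the crypt and 1.23, 1.54 and 0.978 CPM in enterocytes. Both were highest in ISC-like cells, at 19.5 ± 0.587 CPM for Ccne1 and 14.9 ± 1.83 CPM for Ccne2. In the unnamed cluster the E cyclins overlapped the enterocyte range (0.283, 0.511 and 0.293 CPM for Ccne1, from 2 to 4 UMIs), whereas Ccnd1 (30.1, 31.4 and 58.7 CPM), Ccnd2 (134, 119 and 167 CPM) and Cdk4 (79.3, 78.2 and 69.0 CPM) were still above enterocytes in all libraries. With Ccnd3 and Cdk6, 5 members had every value of the unnamed cluster above every enterocyte value (51.3% of all genes at or above 5 CPM did) and Cdkn1a alone had every value below (22.3%). Against the same cluster, the crypt classes were higher for the same 8 members as against enterocytes (44.4% of all genes) and lower for Cdkn1a and Rb1 (29.9%). Against goblet-like cells they were higher for 7, all but Ccnd3 of those 8 (52.8%), and lower for Cdkn1a and Rb1 (20.5%).

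Cdk4 (chr10:127063534-127067920, plus strand), the kinase partner of the D cyclins, had 259, 291 and 254 CPM in the crypt classes and 25.3, 21.4 and 19.6 CPM in enterocytes. Cdk6 (chr5:3341485-3531008, plus strand), its close relative, had 95.4, 81.7 and 91.2 CPM in the crypt and 7.70, 6.35 and 3.60 CPM in enterocytes. Enterocytes therefore held 8.28% ± 1.29 of the crypt level of Cdk4 and 6.60% ± 2.30 of that of Cdk6. Tuft-like cells followed ISC- and TA-like cells for both kinases, with 223 ± 28.5 CPM of Cdk4 and 56.7 ± 9.30 CPM of Cdk6, and both ranges overlapped those of TA-like cells. A UMI of Cdk4 was seen in 32.6%, 64.3% and 45.1% of tuft-like cells and one of Cdk6 in 17.4%, 25% and 19.6%, against 97.7% to 99.5% and 86.6% to 91.0% of ISC-like cells. These cells were shallow, with a median of 0.340 times the UMIs of their libraries.

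The inhibitors did not share a pattern. Cdkn1a (chr17:29090976-29100727, plus strand) had 65.8, 42.5 and 37.8 CPM in the crypt classes and 202, 209 and 219 CPM in enterocytes, a level 459% ± 139 of that in the crypt. Its highest level was in enteroendocrine-like cells, at 844, 739 and 791 CPM, a range that overlapped no other class. Goblet-like cells (224, 195 and 174 CPM) lay near enterocytes, while Paneth-like cells, which are also secretory, had the lowest mean of all classes (35.3, 17.7 and 44.4 CPM), a range that overlapped ISC-like cells. Per cell, Cdkn1a was 15.7, 14.0 and 14.0 UMIs in enteroendocrine-like cells and 6.31, 6.84 and 6.46 in enterocytes. In ISC-like cells it was 1.71, 1.45 and 1.08. Paneth-like cells held a median of 4.16 times the UMIs of their libraries. They had 317 Cdkn1a UMIs in 80 cells, against 1241 in 870 ISC-like and 2136 in 900 TA-like cells. Per cell they thus lay above both, unlike in mean CPM.

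Cdkn1b (chr6:134920401-134925513, plus strand) varied much less. It had 52.0, 55.8 and 51.8 CPM in the crypt and 32.3, 32.3 and 31.9 CPM in enterocytes. As for Cdkn1a, its highest level was in enteroendocrine-like cells, at 123, 95.8 and 131 CPM. Rb1 (chr14:73183673-73325822, minus strand), the substrate of the D cyclin kinases, had 18.6, 16.7 and 16.04 CPM in the crypt and 36.5, 34.9 and 34.1 CPM in enterocytes. Its levels in enteroendocrine-, enterocyte-, tuft- and goblet-like cells and in the unnamed cluster overlapped from each to the next, and TA-like (19.0 ± 1.25 CPM) and ISC-like cells (14.5 ± 1.86 CPM) lay below them. Paneth-like cells had the lowest Rb1 level, 2.22, 1.97 and 1.84 CPM. Those cells held a median of 4.16 times the UMIs of their libraries, and per cell their Rb1 was 0.235, 0.294 and 0.207 UMIs against 1.14, 1.14 and 1.01 in enterocytes.

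**Figure D2:**
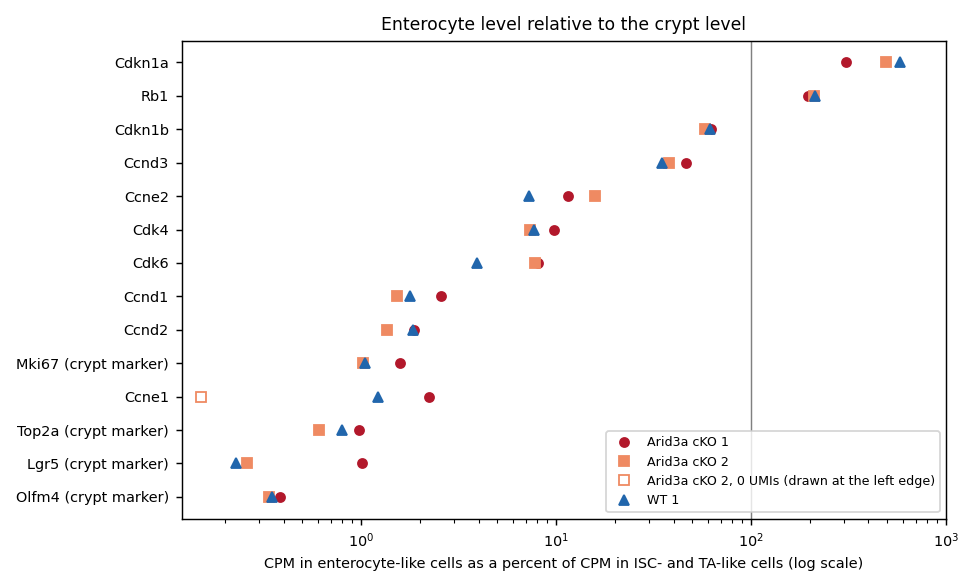
CPM in enterocyte-like cells as a percent of CPM in ISC- and TA-like cells (horizontal axis, log scale) for the 10 genes and 4 crypt markers (vertical axis), with 1 point per library and the 0 of Ccne1 in Arid3a cKO 2 drawn open at the left edge. Ccnd1, Ccnd2 and Ccne1 lie near the crypt markers at the left, Ccnd3 and Cdkn1b keep a large share, and Rb1 and Cdkn1a lie above 100%.

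The floor of this measure can be read from genes known to belong to the crypt. Olfm4 and Lgr5, markers of stem cells, had 0.356% ± 0.0235 and 0.502% ± 0.445 of their crypt level in enterocyte-like cells, and Mki67 and Top2a, markers of division, 1.21% ± 0.316 and 0.794% ± 0.184. The shares of Ccnd1, Ccnd2 and Ccne1 (2.23%, 0% and 1.22%) lay close to this floor, so their enterocyte signal is given no reading of its own. Ccne2 (11.6% ± 4.32), both kinases, Ccnd3 (39.6%) and Cdkn1b (60.6% ± 2.30) lay above it in each library.

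Promoter sequences are shown for 4 genes, a cyclin and a kinase that were high in the crypt and the 2 inhibitors that differed in their pattern. They are the 150 bases before the start site on the strand of the gene, from RefSeq promoters of GRCm38.p6, in which 6 of the 10 genes had an entry (8 promoters) and Ccnd1, Ccnd2, Ccne2 and Rb1 had none. Cdkn1a had another promoter entry upstream (full window chr17:29090729-29091028), not shown, with 0 matches of each motif. Capitals mark the letters GGGCGG (GC box), CCAAT and CTTTGA (the core of a TCF site), on either strand.
Ccne1, chr7:38107491-38107640, minus strand: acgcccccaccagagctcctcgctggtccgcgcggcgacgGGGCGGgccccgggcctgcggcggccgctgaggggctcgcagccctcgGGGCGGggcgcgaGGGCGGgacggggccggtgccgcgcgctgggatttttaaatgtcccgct
Cdk4, chr10:127063385-127063534, plus strand: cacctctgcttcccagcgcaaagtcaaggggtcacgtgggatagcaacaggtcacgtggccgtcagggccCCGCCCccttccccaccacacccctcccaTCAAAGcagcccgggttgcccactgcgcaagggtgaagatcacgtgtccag
Cdkn1a, chr17:29093619-29093768, plus strand: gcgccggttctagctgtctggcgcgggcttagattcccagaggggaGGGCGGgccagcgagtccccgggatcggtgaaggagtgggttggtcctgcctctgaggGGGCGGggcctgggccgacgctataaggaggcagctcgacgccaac
Cdkn1b, chr6:134920251-134920400, plus strand: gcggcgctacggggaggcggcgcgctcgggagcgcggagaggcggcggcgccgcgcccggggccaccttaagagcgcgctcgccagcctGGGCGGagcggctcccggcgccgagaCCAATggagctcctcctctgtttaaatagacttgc

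Motifs were counted over the full promoter windows, from 250 bases before to 50 after each start, and a match is a description of letters only. The GC box GGGCGG was in 6 of the 8 member promoters and in 35.7% of 32851 promoters. CCAAT was in 2 of 8 (Cdkn1b and Ccnd3) and in 37.4% of all, and CTTTGA in 1 of 8 (Cdk4) and in 16.003% of all. The letters TTTNGCGC, searched for on either strand as a form of the E2F site, were in 0 of 8 and in 1.38% of all promoters. Other forms of that site were not counted. No motif overlapped another in the sequences shown.

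Within the crypt, levels were set against the cell cycle phase. Phases of ISC- and TA-like cells were scored after thinning each cell to 24000 UMIs, with Ccne2, E2f8 and Cks1b left out of the scoring genes, which left 524, 426 and 473 cells. G1 cells were 42.7%, 42.0% and 30.2% of these (exact 95% intervals of 38.5 to 47.1%, 37.3 to 46.9% and 26.1 to 34.6%) and S cells 21.8%, 22.8% and 30.7%. Without thinning, which also brings back the 154, 51 and 142 cells below 24000 UMIs, G1 cells were 47.9%, 40.0% and 37.2%. With cell limits of 500 genes and 25% mitochondrial UMIs, they were 43.1%, 39.1% and 36.8%. In both alternatives the intervals of Arid3a cKO 2 and WT overlapped. Levels by phase were summed from all UMIs of the scored cells.

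The E cyclins had the sharpest pattern. Ccne1 was at 44.8, 41.9 and 36.8 CPM in S cells, 9.55, 12.04 and 11.8 CPM in G1 cells and 8.16, 5.26 and 5.92 CPM in G2M cells, an S level 3.70 times the G1 level in the means. Ccne2 was at 32.3, 25.2 and 33.6 CPM in S cells, 7.36, 7.85 and 10.1 CPM in G1 cells and 4.92, 3.79 and 5.01 CPM in G2M cells, 3.60 times higher in S than in G1. In every library both genes were lowest in G2M cells. Over all genes at or above 5 CPM, 19.9% had every S value above every G1 value, and 6 of the 10 members did: both E cyclins, Ccnd3, Cdk4, Cdk6 and Rb1. Values of Ccnd1, Ccnd2, Cdkn1a and Cdkn1b overlapped between S and G1. Without thinning, Ccnd1 takes the place of Cdk6 among the 6.

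The S-phase excess was smaller for the kinases and for Ccnd3. Cdk4 had 336, 368 and 309 CPM in S cells and 233, 274 and 226 CPM in G1 cells, and Cdk6 105, 104 and 95.01 CPM against 89.8, 83.6 and 76.4 CPM. Ccnd3 was 1.45 times and Rb1 1.37 times higher in S than in G1. Ccnd1 was higher in S than in G1 within each library (153 against 110, 144 against 115 and 178 against 145 CPM), although the WT G1 value lay above the S value of Arid3a cKO 2.

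Cdkn1b had every G2M value above every G1 value, as seen in 20.6% of all genes. Rb1 joined it without thinning (1.32 times) and with wider cell limits (1.25 times). Cdkn1b had 65.9, 70.8 and 64.7 CPM in G2M cells against 42.4, 42.1 and 41.9 CPM in G1 cells. Both E cyclins had every G2M value below every G1 value, which 9.52% of all genes had. Without thinning this held for Ccne2 and Cdk6, and Ccne1 overlapped. Cdkn1a overlapped between all phases, with 73.0, 46.0 and 47.8 CPM in G1 cells, 70.7, 47.9 and 34.7 CPM in S cells and 64.5, 39.0 and 37.6 CPM in G2M cells. Its highest value in each phase was that of Arid3a cKO 1.

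**Figure D3:**
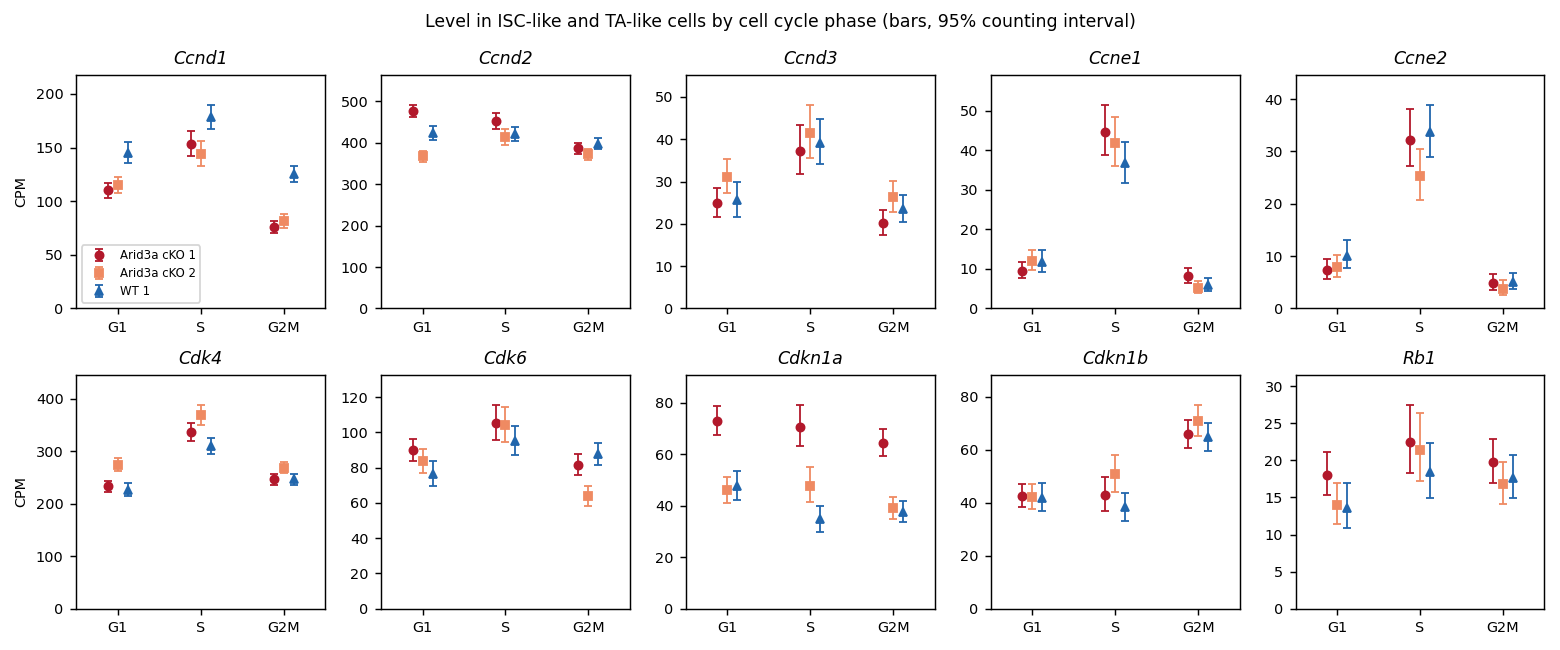
Level of each gene (vertical axis, CPM from 0) in G1, S and G2M cells of the ISC- and TA-like classes, with 1 point per library and bars for the 95% counting interval. Ccne1 and Ccne2 peak in S cells, Cdkn1b in G2M cells, and WT lies above both cKO libraries for Ccnd1 in each phase.

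The split of the crypt into ISC- and TA-like clusters followed the cell cycle, since replication genes such as Ung and Mcm3 led the first and mitosis genes the second. Between them, 5 members had every ISC value above every TA value (Ccnd1, Ccnd2, Ccne1, Ccne2 and Cdk6, against 12.5% of all genes) and 2 every ISC value below (Cdkn1b and Rb1, against 25.2%). These contrasts moved with the cluster resolution: at 0.8 the mean log2 ratio of ISC to TA moved from 0.71 to 2.95 for Ccne1 and turned from -0.37 to 0.29 for Rb1.

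Members were alike in their profile over 24 sums (8 classes by 3 libraries) in varying degree. The profile was each gene's log2 CPM centred within each library, and Pearson's r describes the likeness, with points that share libraries, depth and cells. Of the 45 pairs of members, Cdk4 and Cdk6 were the closest (r = 0.915), ahead of Ccne1 and Ccne2 (0.901), Ccnd3 and Cdkn1b (0.891) and Ccnd1 and Cdk4 (0.890). The least alike were Ccne1 and Cdkn1a (-0.466). Among 8319 genes that reached 20 CPM, the most like were Npm3 for Ccnd1 (r = 0.971), Slc7a1 for Ccnd2 (0.949), BC005561 for Ccnd3 (0.96), Snhg1 for Cdk4 (0.987) and Cdca7 for Cdk6 (0.984). The closest genes were Ccdc68 for Cdkn1a (0.970), Morf4l1 for Cdkn1b (0.979) and Mvp for Rb1 (0.977). Ccne1 and Ccne2 did not reach 20 CPM in a class, and their nearest genes were Fignl1 (0.966) and Rpa2 (0.953).

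Whether loss of Arid3a altered these genes was tested within cell classes, with the counts of a class summed per library and edgeR's quasi-likelihood test across all genes. With a single WT library the spread came from the 2 cKO libraries and the pooled fit, so WT is assumed to vary like them. Of the 10 genes, 1 passed in TA-like cells (Ccnd1, lower in Arid3a cKO), 1 passed in enterocyte-like cells (Cdk6, higher), and 0 passed in ISC-like cells, in ISC- and TA-like cells together or in all kept cells. Over all genes tested, 1.11% passed in TA-like cells (0.656% in the lower direction), 2.17% in enterocytes (0.755% in the higher direction), 0.392% in ISC-like cells, 0.583% in both crypt classes together and 0.696% in all kept cells. In the other directions the shares were 0.452% higher in TA-like cells, 1.41% lower in enterocytes, 0.118% higher in ISC-like cells and 0.456% lower in all kept cells. In both crypt classes WT lay above both cKO libraries for 2 members (35.9% of all genes) and below both for 5 (32.5%). WT lay below both for 4 members in TA-like cells (32.5%) and for 6 in enterocytes (38.3%), and above both for 5 in all kept cells (43.9%). The counts at an unadjusted p under 0.05 were 3 in TA-like cells, 1 in enterocytes (9 tested), 1 in ISC-like cells, 3 in both crypt classes and 1 in all kept cells. Over all genes these counts were 877 of 13263, 1731 of 12591, 963 of 12745, 1015 of 14400 and 1833 of 16670 in the same order. DESeq2 called none of the 10 in any of these classes. The median log2 fold change over the members was between 0.01 and 0.07 in these 5 comparisons, beside medians of all genes between -0.0029 and 0.0050.

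Ccnd1 was lower in Arid3a cKO in TA-like cells. The libraries had 77.2, 84.7 and 125 CPM, from 1081, 1053 and 1658 UMIs. The cKO libraries were close to each other and both below WT, with a log2 fold change of -0.62 (SE 0.16, adjusted p = 0.0144 by edgeR). The fit for TA-like cells shrank all genes to 1 pooled spread, so the spread of Ccnd1 itself did not enter. The call held in 9 of 11 fits with a test, and was lost with DESeq2 (adjusted p = 0.350) and without a filter on low counts (adjusted p = 0.0502). It was -0.53 without Arid3a cKO 1 and -0.71 without Arid3a cKO 2, as values with no test.

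Both cKO libraries also lay below WT for Ccnd1 in some other cells. ISC-like cells had 140.2, 142 and 170.5 CPM of Ccnd1, a log2 fold change of -0.27 (SE 0.13) that did not pass (adjusted p = 0.676 by edgeR). Over all kept cells it was 46.3, 47.9 and 66.4 CPM, a log2 fold change of -0.46 with an adjusted p of 0.0953. In the unnamed cluster (30.1, 31.4 and 58.7 CPM) and in goblet-like cells (52.6, 51.4 and 66.7 CPM) both cKO values also lay below WT, and genotype was not tested there. In enterocytes WT lay between the cKO libraries.

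Phase shares differed between the libraries in the main setting, and the values for Ccnd1 within phases stand beside its result. The phase values cover the scored ISC- and TA-like cells together, whereas the result is for TA-like cells. In G1 cells Ccnd1 was at 110, 115 and 145 CPM, in S cells at 153, 144 and 178 CPM and in G2M cells at 75.7, 81.4 and 125 CPM. Both cKO libraries were below WT in each of the 3 phases.

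Cdk6 was higher in Arid3a cKO in enterocyte-like cells, where it is scarce. The libraries had 7.70, 6.35 and 3.60 CPM, from 207, 136 and 81 UMIs. The 95% counting intervals of both cKO libraries lay above that of WT, and the log2 fold change was 0.96 (SE 0.20, adjusted p = 0.0227 by edgeR). The call held in 10 of 11 fits and was lost with DESeq2 (adjusted p = 0.80). Values with 1 cKO library left out were 0.82 and 1.04.

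The difference was present in each of the 3 large enterocyte-like clusters, with 6.66, 6.11 and 2.69 CPM, 8.73, 7.38 and 4.82 CPM, and 7.72, 4.54 and 4.26 CPM, although Arid3a cKO 2 was close to WT in the last and its interval overlapped that of WT in the last 2. Relative to the crypt level, enterocyte-like cells held 0.382%, 0.337% and 0.347% of Olfm4, 1.02%, 0.261% and 0.229% of Lgr5 (12, 2 and 2 UMIs), 1.58%, 1.02% and 1.04% of Mki67 and 0.9745%, 0.606% and 0.802% of Top2a. Arid3a cKO 1 was the highest for all 4 crypt markers. Arid3a cKO 2 lay below WT for Olfm4, Mki67 and Top2a, unlike for Cdk6, and above WT for Lgr5 (2 UMIs in each). The part of crypt RNA in the Cdk6 values was not tested. Markers of T cells ran in the opposite order in enterocyte-like cells, with a summed level of 4.20, 35.1 and 56.0 CPM over 10 of 10 genes and Gzma the highest. Fibroblast markers were at 0, 0 and 0.0889 CPM there.

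In the crypt Cdk6 did not pass. It had 72.0, 62.5 and 79.4 CPM in TA-like cells, with WT the highest (log2 fold change -0.24, SE 0.17) and 125.5, 111 and 107 CPM in ISC-like cells (0.14, SE 0.14). The effect in enterocytes exceeded that in ISC- and TA-like cells by 0.99 on the log2 scale (SE 0.22, adjusted p = 0.00205, edgeR interaction with the library as a block, against 0.818% of all genes called). Without the highest doublet scores this difference was 0.95, with an adjusted p of 0.0449 by the same test.

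**Figure D4:**
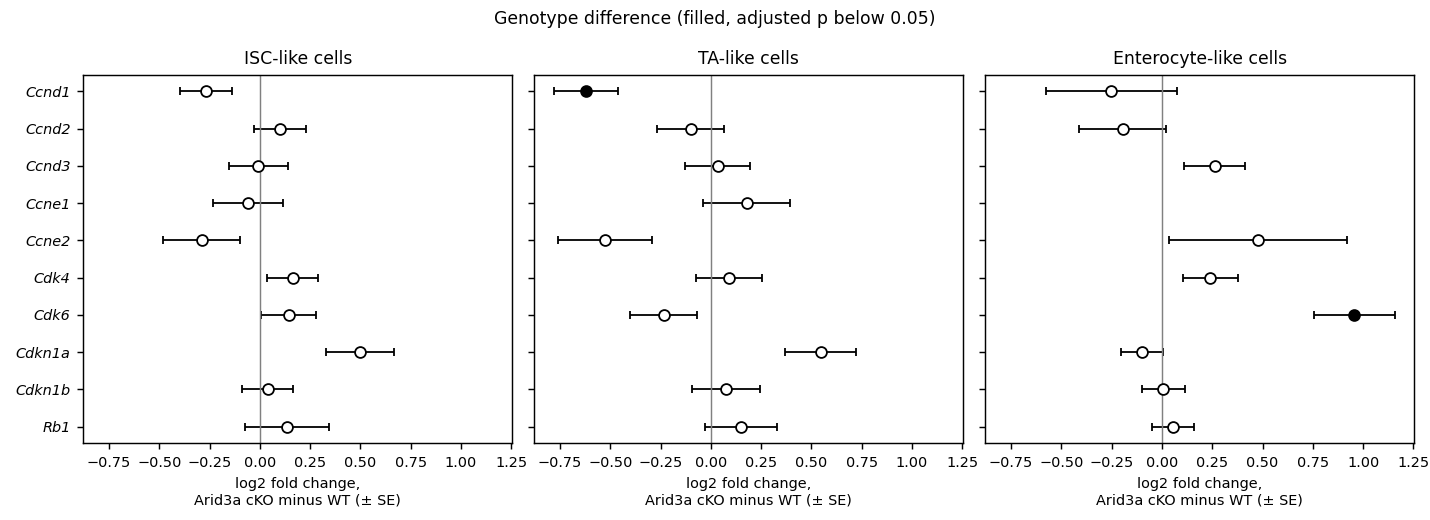
Log2 fold change of Arid3a cKO relative to WT with its SE (horizontal axis) for each gene (vertical axis) in ISC-, TA- and enterocyte-like cells. Filled points mark an adjusted p below 0.05, which Ccnd1 reached in TA-like cells and Cdk6 in enterocyte-like cells, and Ccne1 was too rare in enterocytes to be tested.

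Cdkn1a differed between the cKO libraries themselves. In ISC- and TA-like cells its levels were 65.8, 42.5 and 37.8 CPM, so the gap between the cKO libraries was larger than that between Arid3a cKO 2 and WT. The log2 fold change of 0.52 (SE 0.20) did not pass (adjusted p = 0.469 by edgeR), and it was 0.19 without Arid3a cKO 1 and 0.79 without Arid3a cKO 2. It passed without cells marked as doublets (adjusted p = 0.00227), without the 5% of cells scored most doublet-like (0.000573) and without integration (0.0438). Without marked doublets the levels were 65.9, 40.2 and 31.9 CPM, with WT the most altered. The 1% of cells with most Cdkn1a held 10.5%, 8.68% and 15.99% of its UMIs in these classes.

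In enterocytes Cdkn1a was at 202, 209 and 219 CPM, a log2 fold change of -0.10 (SE 0.10, adjusted p = 0.724 by edgeR). The difference between the effects in the compartments was -0.60 (SE 0.16, adjusted p = 0.0224 by the edgeR interaction), beside a crypt effect of 0.19 without Arid3a cKO 1. It was -0.83 with an adjusted p of 0.0516 without the highest doublet scores.

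Other genes known to answer to p53 and to cell stress were counted beside Cdkn1a. Of 14 p53 targets, 0 passed in any of the 5 comparisons, with 1 (of 11 tested, in enterocytes) to 4 (in both crypt classes) at an unadjusted p under 0.05, beside 1731 of 12591 and 1015 of 14400 of all genes, and their median log2 fold change in both crypt classes was 0.04. Of 10 genes of dissociation stress, 1 fell in both crypt classes: the chaperone gene Hsph1, with 49.7, 64.2 and 178 CPM and a log2 fold change of -1.64 (SE 0.15, adjusted p = 1.16e-06 by edgeR). Hsph1 fell in all 5 comparisons, Hspa1a in ISC-like cells (-0.77, adjusted p = 0.0492), and Atf3, a stress-induced transcription factor, rose in TA-like cells (0.80, adjusted p = 0.000645). The Atf3 levels there were 405, 209 and 176 CPM, the same order of libraries as Cdkn1a. The summed level of the stress list in the crypt classes was 5901, 4797 and 4849 CPM, and its part in the Cdkn1a values was not tested.

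**Figure D5:**
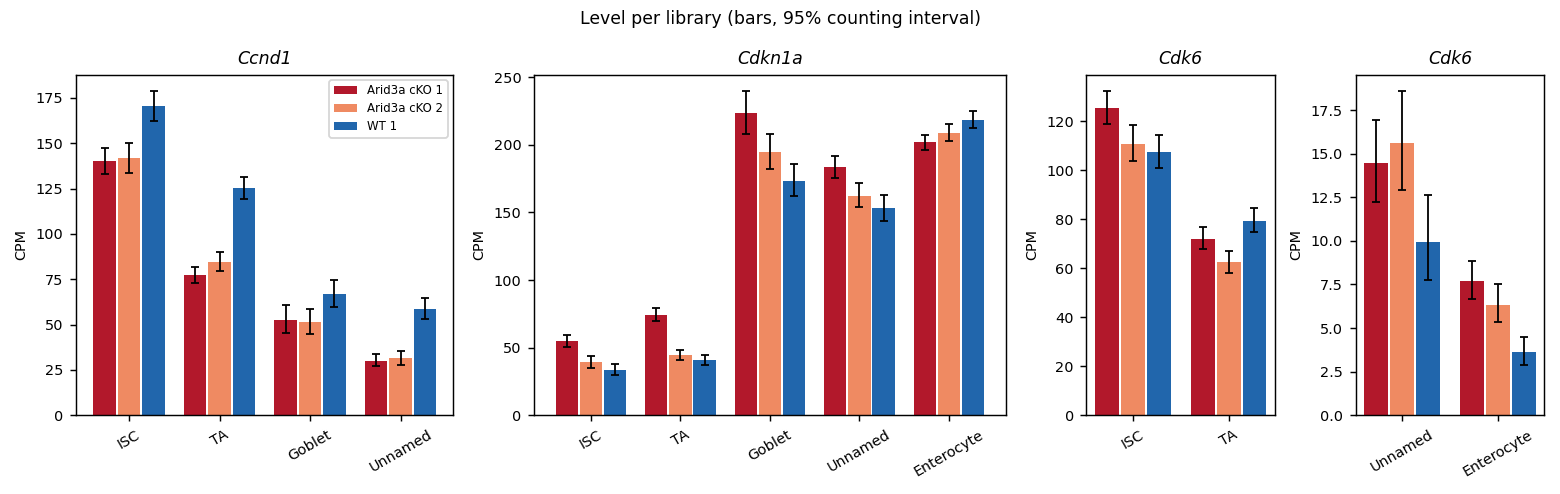
CPM (vertical axes, from 0) of Ccnd1, Cdkn1a and Cdk6 in selected classes by library, with bars for the 95% counting interval. Ccnd1 is highest in WT in the 4 classes shown, Cdkn1a in the crypt is set apart by Arid3a cKO 1, and Cdk6 in enterocytes is lowest in WT at 3.60 CPM.

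The remaining 7 genes passed in no comparison. Among them, Ccne2 in TA-like cells had 8.43, 6.75 and 11.01 CPM and a log2 fold change of -0.53 (SE 0.23, adjusted p = 0.559 by edgeR). Ccnd2 differed by -0.0025 in both crypt classes (SE 0.13), with WT between the cKO libraries. Ccnd3 (0.02, SE 0.16) and Ccne1 (0.05, SE 0.15) were as close to 0 there. Cdk4 had a log2 fold change of 0.13 (SE 0.14), Cdkn1b of 0.07 (SE 0.15) and Rb1 of 0.15 (SE 0.14) in the same cells. In enterocytes Ccnd3 differed by 0.26 (SE 0.15) and Cdk4 by 0.24 (SE 0.14), with WT below both cKO libraries for each. In simulated data of this design, 64% of genes changed 2-fold in both crypt classes were called. The changed genes were drawn at random from all genes tested, so this rate is not specific to the members. For genes drawn this way, smaller differences would often be missed at this depth and sample number.

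A list of 30 further genes of the pathway (Cdk2, A cyclins, inhibitors of the Ink4 and Kip families, E2F and DP factors, Rb relatives and regulators) gave 1 call in all. Cdkn2c (p18), an inhibitor of Cdk4 and Cdk6, was higher in Arid3a cKO in enterocyte-like cells, where it is scarce. It had 4.91, 4.71 and 2.27 CPM there, from 132, 101 and 51 UMIs. The log2 fold change was 1.07 (SE 0.24, adjusted p = 0.0308 by edgeR). In both crypt classes Cdkn2c had 16.8, 19.3 and 15.2 CPM, and the part of crypt RNA in its enterocyte values was not tested. The call was not followed over the alternative fits. Of this list 26 genes were tested in enterocytes, with a median log2 fold change of 0.05. In both crypt classes 0 of 29 passed, with 4 at an unadjusted p under 0.05, and the largest values were those of Cdkn1c (0.66, SE 0.27), Ccna1 (0.57, SE 0.52) and Cdkn2b (0.53, SE 0.15). In TA-like cells 0 of 29 passed, with Cdkn1c at 0.84 (SE 0.34), Cdkn2b at 0.57 (SE 0.17, adjusted p = 0.0647) and Mycn at 0.51 (SE 0.47). In ISC-like cells 0 of 28 passed, led by E2f2 (-0.50, SE 0.16), E2f8 (-0.48, SE 0.15) and Cdkn1c (0.44, SE 0.52). Over all kept cells 0 of 29 passed, led by Ccna1 (0.50, SE 0.51), Cdkn2c (0.44, SE 0.13) and Cdkn1c (-0.39, SE 0.14).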

How the data were processed

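The authors sequenced 10x Genomics 3′ libraries and deposited raw UMI counts per gene and barcode. The submitters' processing notes name Cell Ranger, with GRCh38 and hg19 as builds, although the gene identifiers are those of mouse, so the build of the counting is not given in the sources used here. Positions come from GENCODE M21 (GRCm38), matched by gene identifier. The 10 genes and all lists were chosen with earlier results of these data known.

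From the deposited counts, cells with at least 1000 genes and at most 15% mitochondrial UMIs were clustered in Seurat 5.3.0 (R 4.3.3) after canonical correlation integration (3000 features, 2000 for the components, 30 components, resolution 0.3), without the 10 genes and the 30 pathway genes. Clusters were named by whichever marker list had most genes (3 or more) among the 50 leading genes, or, failing that, by the list with the highest proportion of genes raised 1.5-fold. Scrublet (in scanpy 1.11.5) marked 30, 34 and 46 doublets (1.41% to 2.41% of the kept cells), which were kept. CPM are UMIs of a gene per 1000000 UMIs of a class in a library, and the 3 libraries held 58169310 to 70922480 UMIs in all kept cells.

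Genotypes were compared with edgeR 4.0.16 (quasi-likelihood test, TMM scaling, filterByExpr, Benjamini-Hochberg over all genes, 2 libraries against 1, 1 residual degree of freedom). Alternatives were DESeq2 1.42.0, other scalings, filters, cell limits, doublet removal, clusterings and leaving out each cKO library. Simulated data with 100 genes changed 2-fold and 100 changed 4-fold were recovered at 64% and 90% in ISC- and TA-like cells (14400 genes, with 15 unchanged genes called) and at 75% and 94% in enterocytes (12591 genes, with 24 called). Named genes are the members, the pathway genes past an adjusted p of 0.05 or else the 3 with the largest absolute log2 fold change, the called genes of the p53 and stress lists, and the genes with the most like profile. In Arid3a cKO 2 only 17 Paneth-like cells were kept.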

Additional observations from a re-analysis of the deposited data

Results flagged for a closer look

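For 2 of the 10 genes, the genotype effect differed between enterocyte-like cells and ISC- and TA-like cells by a test of that difference, which 0.818% of all genes passed. For Cdk6 the effect in enterocytes exceeded that in the crypt by 0.99 on the log2 scale (SE 0.22, adjusted p = 0.00205 by the edgeR interaction, and 0.0449 without the top 5% of doublet scores). Both cKO libraries were above WT in enterocytes, and WT lay between them in the crypt. For Cdkn1a the difference was -0.60 (SE 0.16, adjusted p = 0.0224 by edgeR, and 0.0516 without the top 5% of doublet scores), with both cKO libraries below WT in enterocytes and above WT in the crypt, where Arid3a cKO 1 (65.8 CPM) stood apart from Arid3a cKO 2 (42.5 CPM) and WT (37.8 CPM). The groups of 2 and 1 libraries are too small to judge a single library as an outlier.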

How the results depend on the processing

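No paired analysis was made, because the labels do not pair libraries across genotypes and only 1 WT library was analysed. Over 460 pairs of a member and an alternative with a test, 423 kept direction and side of the threshold, 12 calls were gained, 22 changed sign and 3 were lost: Ccnd1 in TA-like cells with DESeq2 and without a filter, and Cdk6 in enterocytes with DESeq2. The gained calls were all of Cdkn1a or Ccnd1. Cdkn1a rose in both crypt classes together and in TA-like cells without doublets, without top doublet scores and without integration, and in ISC-like cells under the first 2 of these. Ccnd1 fell in both crypt classes with library totals (-0.44, adjusted p = 0.0363), in enterocytes without integration (-0.67, 0.00675) and in all kept cells without a filter (-0.46, 0.00243) and without top scores (-0.47, 0.000217). Without integration no cluster stayed unnamed, and the enterocyte class held 1173, 797 and 899 cells in place of 861, 655 and 762. In the main clustering the mean of Ccnd1 was 40.1 CPM in the unnamed cluster and 2.30 CPM in enterocyte-like cells. The causes of the gained calls were not tested. Leaving out a cKO library leaves 1 against 1 and no test. Levels without the 1% of cells richest in a gene, and class or phase levels by library left out, were alternatives chosen after seeing the data.

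The number of all genes called in ISC- and TA-like cells (84) became 151 with DESeq2 size factors, 197 with library totals, 219 without a filter, 45 with DESeq2, 55 with wider cell limits, 191 without doublets, 194 without the top 5% of doublet scores, 230 without integration and 152 with members in the clustering. In ISC-like cells (50) it became 193 without a filter, 21 with DESeq2, 272 with wider limits, 151 without doublets, 101 without top scores, 97 at resolution 0.8 and 141 without integration. DESeq2 gave 28 in TA-like cells (147). Enterocytes (273) gave 467 with library totals, 546 without a filter and 95 with DESeq2. All kept cells (116) gave 60 with size factors, 677 without a filter, 70 without doublets and 703 without top scores. The interaction (121) gave 43 without top scores.

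Most sign changes were of log2 values near 0. Exceptions were Ccne2 in enterocytes, at -0.12 to 0.54 over the fits, and the ISC to TA ratio of Rb1, at -0.37 in the main setting. In ISC- and TA-like cells they were Ccnd2 with size factors (0.0033), DESeq2 (0.0033) and wider limits (0.027), Cdk6 with wider limits (0.019), and Ccnd3 (-0.032) and Ccne1 (-0.022) without top scores. In ISC-like cells they were Ccnd3 with wider limits (0.051), without doublets (0.0011) and at resolution 0.8 (0.0049), Ccne1 with wider limits (0.040), at resolution 0.8 (0.0030) and without integration (0.032), and Cdk6 at resolution 0.8 (-0.0013). In TA-like cells they were Ccnd3 without top scores (-0.057) and Cdkn1b at resolution 0.8 (-0.0046), and in enterocytes Ccne2 (-0.12) and Cdkn1b (-0.018) with wider limits. Over all kept cells Ccne1 changed with library totals (-0.025), without doublets (-0.031) and without top scores (-0.081), and Cdk6 (-0.021) and Cdkn1b (-0.029) with library totals. The interaction of Ccne1 without top scores was -0.11, and the ISC to TA ratio of Rb1 turned to 0.29 at resolution 0.8.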
